A study of Mus musculus with 24 samples.

Results

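The tumour effect shared by 3 brain regions was taken from all 24 libraries of a bulk RNA sequencing series of mouse brain, 8 each from neocortex, cerebellum and hippocampus. For each replicate number in the sample titles, log2(TPM + 1) was averaged over its neocortical, cerebellar and hippocampal libraries, which left 4 values for tumour-bearing and 4 for control mice. TPM, short for transcripts per 1e6, is an abundance scaled by transcript length and to the same total in every library. Of 47643 gene symbols in the table, 13633 had a mean of at least 1 TPM in each region and were tested. The LLC group, numbers 1 to 4, were male mice of the strain C57BL6/J, 4 months old, injected with LLC cells, whose growth lasted no more than about 3 weeks. Controls, numbers 14 to 17, were of the same sex, strain and age and had been mock-injected. The usual meaning of LLC is Lewis lung carcinoma, a transplantable mouse tumour cell line, although the labels leave it unexplained and the series title names melanoma. The series asks how tumour-induced wasting affects different organs. The labels call the libraries biological replicates without saying whether the 3 libraries of a number came from 1 mouse, so p-values below measure the spread between numbers.

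Tumours outside the brain can act on it through circulating cytokines, hormones and blood cells. Endothelial cells, which line brain vessels and form the blood-brain barrier, carry receptors for interleukin 1 and interleukin 6. Of these, interleukin 6 acts on acute-phase genes through the transcription factor STAT3. Glucocorticoids released under systemic stress reach every brain region, and astrocytes, which wrap the vessels, are a main site of cholesterol synthesis for neurons.

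Region markers followed the labels. The granule cell gene Gabra6, which encodes part of a GABA receptor, reached 454.5 to 986 TPM in cerebellar libraries and at most 0.403 TPM elsewhere, and Prox1, which marks granule neurons of the dentate gyrus, lay at 30.9 to 52.7 TPM in hippocampus, at 18.4 to 35.3 TPM in cerebellum and at 6.91 to 8.77 TPM in neocortex. Between 14368 and 14847 genes reached 1 TPM per library, and the 10 most abundant genes held 18.9% to 26.1% of the total. TPM gives no read number, so absolute depth is unknown. The cerebellar library of LLC 1 stood apart, with Gabra6 at 454.5 TPM against 761.0 to 985.7 TPM in the other cerebellar libraries and Cbln3, another granule cell gene, at 694 TPM against 1109 to 1273 TPM. Leaving that library out gave 2415 called genes in place of 1939, with 95.9% of the rising and 89.2% of the falling calls retained.

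Across the 3 regions together, LLC brains had higher levels of transcripts from red cells, neutrophils, activated endothelium and acute-phase proteins than control brains. Transcripts of cholesterol synthesis and of heat shock proteins were lower. The calprotectin gene S100a9 rose by 3.34 ± 0.46 (SE) on the log2(TPM + 1) scale, the acute-phase gene Lcn2 by 2.43 ± 0.11 and the clotting factor gene Vwf by 2.26 ± 0.21. Gkn3, a gastrokine gene of arterial endothelium, fell by 1.11 ± 0.15, and Hmgcs1, an early enzyme of cholesterol synthesis, by 0.68 ± 0.11. In limma's moderated test with Benjamini-Hochberg adjustment, 1939 genes, or 14.2% of those tested, passed an adjusted p of 0.05. Of these, 1107 rose (8.12% of tested) and 832 fell (6.1%), a split that became 898 and 1049 with each library's trend over GC content and transcript length removed.

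Most changes were small. Among the called genes 1217, or 62.8%, differed by less than 0.3 on the log2 scale, and the median was 0.27 for rising and -0.24 for falling genes against -0.01 over all tested. Only 45 called genes differed by at least 1 on that scale, 41 upward and 4 downward. All 4 LLC values lay on one side of all 4 control values for 2823 genes, 20.7% of those tested, 1580 upward (11.6%) and 1243 downward (9.12%). The count of calls depended on single numbers: it was 368 without control 15, 442 without control 16, 714 without LLC 2, 813 without control 17, 973 without LLC 3, 1200 without control 14, 1311 without LLC 1 and 4111 without LLC 4. The 15 largest rises kept their call in each of these 8 fits, as did 65 of the 130 genes named for the brain-wide effect. Of the 15 largest falls, 12 kept it without control 16 and 11 without control 15, when Zfp871, Aqp4, Tst and Acat3 did not pass. Among the 15 rises, Lcn2, Retnlg, Lrg1, Tmem252 and Chil3 had a control mean under 1 TPM in at least 1 region and reached the minimum for testing through the LLC libraries.

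**Figure D1:**
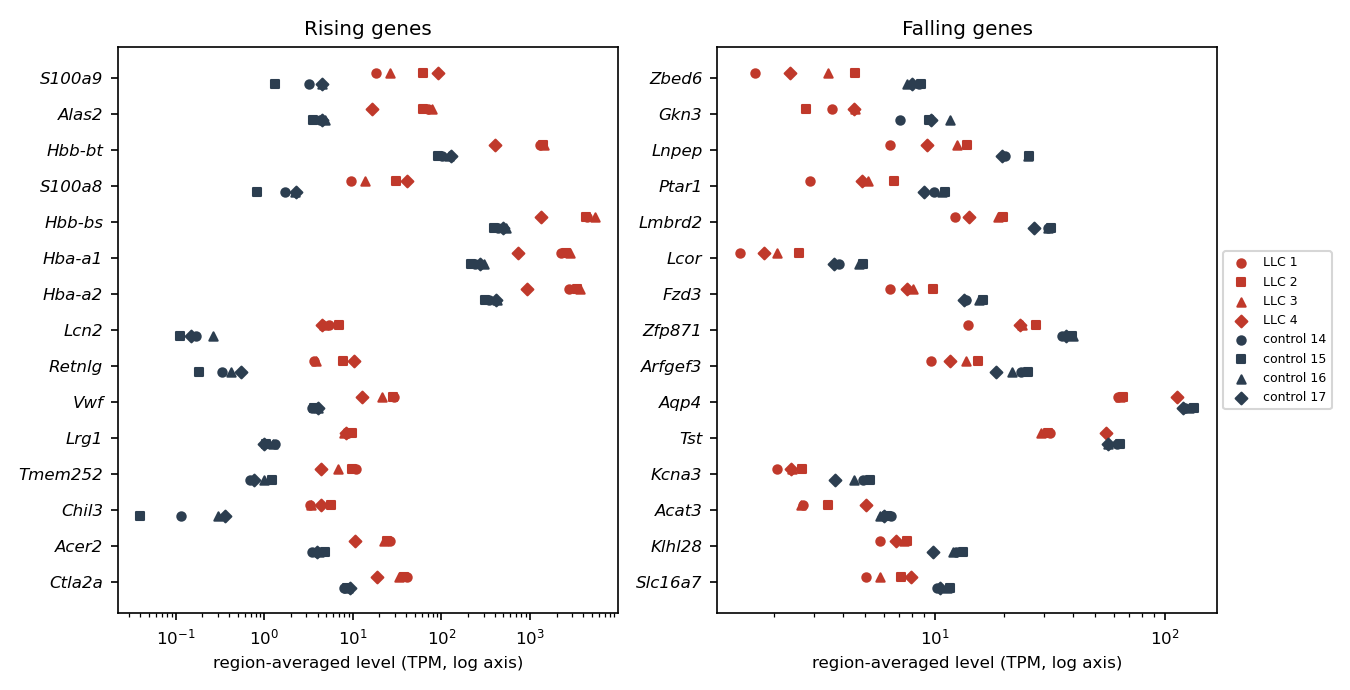
Region-averaged level (TPM, log axis) of the 15 genes with the largest rise and the 15 with the largest fall, 1 symbol per replicate number, LLC in red and controls in dark blue. LLC and control symbols do not overlap for any of the 30 genes, which was a condition for choosing them, and LLC 4 (red diamond) lies nearest to the controls for the haemoglobin genes, Alas2, Vwf and Acer2.

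Transcripts of blood cells had the largest rises. Transcripts of the adult haemoglobin chains (beta: Hbb-bt, Hbb-bs; alpha: Hba-a2, Hba-a1) summed to 10680, 11760, 13420 and 3394 TPM in LLC 1 to 4 and 1121, 1016, 1393 and 1314 TPM in controls 14 to 17. LLC 4 was far below the other LLC numbers and still above every control. The sums differed by 2.85 on the log2 scale (exact permutation test over the 8 numbers, two-sided p = 0.0286, the smallest that 4 against 4 allows, and 0.0571 without any 1 control). The same genes were also tested singly on these values, so this p is no separate support. Alas2, which in red cell precursors catalyses the opening step of haem production, stood at 70.7, 61.6, 78.9 and 16.3 TPM in LLC and between 3.59 and 4.88 TPM in controls. All 5 tested members of an 11-gene erythroid list rose, against 8.12% of all genes tested, with a median of 2.88. Near-identical copies within each globin pair may divide reads, so the single values are uncertain while the sum is less affected.

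Neutrophil transcripts ordered the LLC numbers differently. S100a9 and S100a8 encode the subunits of calprotectin, a calcium-binding protein of granulocytes. S100a9 reached 18.5, 62.3, 26.0 and 91.4 TPM in LLC 1 to 4 against 3.17, 1.31, 4.47 and 4.50 TPM in controls 14 to 17. LLC 4, lowest of its group for haemoglobin, was highest for S100a9. The sum of 16 neutrophil genes was 44.8, 126, 57.8 and 168 TPM in LLC and 12.5, 8.47, 15.3 and 15.1 TPM in controls. Its log2 difference was 2.69 (exact permutation test, two-sided p = 0.0286, the smallest that 4 against 4 allows). S100a9 and S100a8 are part of the sum, and the list was chosen with earlier results of these data known. The p of the sum is thus no support separate from the single genes. Only 6 of the 16 genes reached the minimum of 1 TPM, and Retnlg and Chil3, whose control mean was under 1 TPM in at least 1 region, did so through the LLC libraries, which favoured a rise. The other members tested also rose: S100a8, S100a9, the gelatinase Mmp9 (0.54 ± 0.10) and the granulocyte colony-stimulating factor receptor Csf3r (0.48 ± 0.14). Over all genes tested, 8.12% rose. No lymphocyte gene of a 9-gene list reached the level needed for testing, and their summed level was 4.39 to 5.97 TPM in LLC and 4.91 to 5.57 TPM in control numbers. In bulk tissue, more cells of a type and more RNA per cell cannot be told apart.

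Acute-phase genes and targets of STAT3 were higher in LLC brains. Of the 18 members tested, Lrg1, Lcn2, Ch25h and Hp had a control mean under 1 TPM in at least 1 region and entered the test through the LLC libraries, so that the filter favoured a rise. Of the other 14, 7 rose and 0 fell, where 14.2% of all genes tested were called. Lrg1, a secreted leucine-rich glycoprotein, had the smallest p of the brain-wide fit and lies at chr17:56119678-56122001 (mm10, GENCODE M21, as for the other gene positions). Its level was 8.80, 9.69, 7.88 and 8.33 TPM in LLC 1 to 4 and 1.34, 1.05, 1.26 and 0.991 TPM in controls 14 to 17. The LLC values were far above the highest control and close to one another, LLC 4 included. Its log2 fold change was 2.16 ± 0.08 (limma adjusted p = 1.02e-06). Lcn2, a siderophore-binding protein of the acute phase (chr2:32384633-32388252), stood at 5.42, 6.97, 4.69 and 4.45 TPM in LLC and at 0.169, 0.111, 0.265 and 0.148 TPM in controls (limma adjusted p = 6.59e-06).

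The other members that rose were Ch25h, a cholesterol 25-hydroxylase, Icam1, a leukocyte adhesion molecule, Osmr, Socs3, Cebpd, Il4ra, Cp, Il6ra and Hp. Icam1 was at 8.95, 8.10, 6.74 and 4.62 TPM in LLC and at 2.47 to 2.71 TPM in controls, a log2 fold change of 1.15 ± 0.15. Socs3, a feedback inhibitor of STAT3, rose by 0.55 ± 0.08 and was highest in LLC 4, at 3.95 TPM against 2.94 to 3.24 TPM in LLC 1 to 3. Stat3 itself differed by 0.14 ± 0.04 (limma adjusted p = 0.0572) and did not pass, and Serpina3n by 0.32 ± 0.15 (adjusted p = 0.158).

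Promoter windows of 3 of these genes are shown because Lrg1 and Lcn2 had the smallest p of the list and Icam1 holds the STAT letters searched, TTCNNNGAA on either strand, with N for any base. Windows are 300 bases around the RefSeq start site on GRCm38.p6, printed 5′ to 3′ on the strand of the gene, and capitals mark a match. They are chr17:56121897-56122196 on the minus strand for Lrg1, chr2:32387690-32387989 on the minus strand for Lcn2 and chr9:21015690-21015989 on the plus strand for Icam1.
Lrg1: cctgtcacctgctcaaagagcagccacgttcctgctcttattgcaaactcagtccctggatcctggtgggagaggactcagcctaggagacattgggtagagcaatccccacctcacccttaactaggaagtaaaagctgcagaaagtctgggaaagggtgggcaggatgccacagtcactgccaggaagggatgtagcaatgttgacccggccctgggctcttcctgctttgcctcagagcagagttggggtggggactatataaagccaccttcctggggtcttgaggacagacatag
Lcn2: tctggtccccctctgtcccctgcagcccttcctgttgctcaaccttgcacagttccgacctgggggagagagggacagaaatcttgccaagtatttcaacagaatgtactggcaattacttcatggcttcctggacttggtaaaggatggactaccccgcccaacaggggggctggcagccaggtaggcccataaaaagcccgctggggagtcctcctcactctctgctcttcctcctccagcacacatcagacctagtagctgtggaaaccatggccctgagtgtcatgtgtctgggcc
Icam1: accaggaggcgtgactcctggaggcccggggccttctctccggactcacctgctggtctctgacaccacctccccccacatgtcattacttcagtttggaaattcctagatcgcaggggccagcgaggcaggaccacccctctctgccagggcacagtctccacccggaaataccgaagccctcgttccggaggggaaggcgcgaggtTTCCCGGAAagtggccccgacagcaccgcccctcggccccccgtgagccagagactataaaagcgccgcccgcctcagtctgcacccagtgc
The match of Icam1 lies at position -42 from the start site and overlaps no other motif searched. Of the 11 rising members 9 had a window, and 2 of these, Icam1 and Socs3, held the letters. Those letters occurred in 689 of 10268 promoters of tested genes (6.71%), and 75.3% of tested genes had a promoter in the table. The Lrg1 and Lcn2 windows do not hold them, which says nothing of STAT3 binding elsewhere.

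Genes of the vessel wall were higher in LLC brains, those of the endothelium most widely. Of 21 endothelial genes 17 rose and 1 fell (85.7% called, against 14.2% of all genes tested), with a median of 0.45. Without control 16 the rising members numbered 11. Pecam1, an endothelial adhesion molecule, rose by 0.80 ± 0.10, the vascular endothelial growth factor receptors Flt1 and Kdr by 0.75 ± 0.11 and 0.88 ± 0.14, and Cldn5, a tight-junction protein of the blood-brain barrier, by 0.58 ± 0.11. Itm2a, a membrane protein of brain endothelium, was the exception: it stood at 64.0, 62.2, 60.3 and 71.0 TPM in LLC 1 to 4 and at 87.7 to 94.6 TPM in controls, a fall of 0.49 ± 0.05. Tie1 (0.20 ± 0.07), Slco1a4 (0.15 ± 0.08) and Emcn (-0.08 ± 0.07) did not pass.

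Of 8 endothelial activation genes tested, Lrg1 and Angpt2 entered through the LLC libraries in at least 1 region. Among the other 6, 5 rose, against 8.12% of all genes tested. Vwf, which tethers platelets (chr6:125546774-125686679), stood at 28.8, 28.5, 21.5 and 12.7 TPM in LLC 1 to 4 and at 3.43, 3.65, 4.03 and 4.07 TPM in controls 14 to 17. Every LLC value lay above every control, with LLC 4 the lowest. The interleukin 1 receptor Il1r1 rose by 0.64 ± 0.09 and the venular chemokine receptor Ackr1 by 0.23 ± 0.04, whereas Vcam1 differed by -0.20 ± 0.07 and did not pass (limma adjusted p = 0.0798). Without control 15 the whole list had 4 rising members in place of 7. Among the 15 largest rises outside the lists above stood Tmem252, a transmembrane protein (0.692 to 1.22 TPM in controls and 4.35 to 10.9 TPM in LLC), and Acer2, an alkaline ceramidase that yields sphingosine (3.45 to 4.81 TPM and 10.6 to 26.5 TPM). Ctla2a, a cysteine protease inhibitor of endothelium, rose from between 7.87 and 9.25 TPM to between 18.99 and 40.5 TPM, with reads that its near copy Ctla2b may share.

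Mural cells, the pericytes and smooth muscle around vessels, had 6 rising genes of 12 (50% called, against 14.2% of all genes tested) and a median of 0.21. Abcc9 and Kcnj8, the subunits of the pericyte potassium channel, rose by 0.82 ± 0.15 and 0.77 ± 0.18, while the smooth muscle genes Acta2, Tagln and Myh11 did not pass. This count was 3, 2 and 2 without LLC 1, 2 and 3 and 3, 2, 1 and 2 without controls 14 to 17. Basement membrane genes rose in 7 of 13 cases (53.8% called), with a median of 0.30, including the fibronectin gene Fn1 (0.81 ± 0.10) and the type IV collagen genes Col4a1 (0.69 ± 0.09) and Col4a2 (0.50 ± 0.07). Sparc, a matrix protein secreted by endothelium and glia, stood at 597, 594, 575 and 369 TPM in LLC 1 to 4 and at 272 to 301 TPM in controls. Igfbp7, a growth factor binding protein of vessels, rose by 0.90 ± 0.06, with 65.4 to 77.3 TPM in LLC and 35.3 to 40.8 TPM in controls.

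Glucocorticoid-responsive genes were higher in 3 of the 4 LLC numbers. The mean of 21 genes differed from controls by 0.85, 0.80 and 0.81 on the log2 scale in LLC 1 to 3 and by 0.02 in LLC 4, while controls ranged from -0.22 to 0.17. LLC 4 thus lay among the controls. In the test 8 of 21 rose and 0 fell (38.1% called, against 14.2% of all genes tested), with a median of 0.63: Mt1, Map3k6, Arrdc2, Cdkn1a, Gjb6, Sult1a1, Ddit4 and Hif3a. Cdkn1a, a cell cycle inhibitor, stood at 42.4, 37.8, 36.4 and 16.1 TPM in LLC and at 12.4 to 15.3 TPM in controls. The textbook targets Fkbp5 (0.73 ± 0.23, limma adjusted p = 0.0608) and Sgk1 (0.99 ± 0.30, adjusted p = 0.0541) did not pass. Sgk1 was at 123, 108 and 96.0 TPM in LLC 1 to 3 and at 39.5 TPM in LLC 4, within the control range of 33.8 to 53.2 TPM. Without LLC 4 13 members rose and 1 fell. The rising count was 5, 2 and 3 without LLC 1, 2 and 3, and 4, 0 and 1 without controls 14, 15 and 16.

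Hypoxia-responsive genes also had LLC 4 apart from LLC 1 to 3, with mean differences of 0.52, 0.44 and 0.44 in LLC 1 to 3, 0.08 in LLC 4 and -0.07 to 0.04 in controls. Of 16 tested members 6 rose and 0 fell (37.5% called, against 14.2% of all genes tested), with a median of 0.16. Vegfa, the vascular growth factor, stood at 109, 111, 109 and 68.1 TPM in LLC 1 to 4 and at 55.9 to 62.4 TPM in controls. Slc2a1, the glucose transporter of the blood-brain barrier, rose by 0.84 ± 0.16 and Adm, the vasodilator adrenomedullin, by 1.71 ± 0.40. Genes of glycolysis on the list, Ldha, Pgk1 and Hk2, did not pass. The count was 11 without LLC 4, and 3 without LLC 2, LLC 3, control 15 or control 16.

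**Figure D2:**
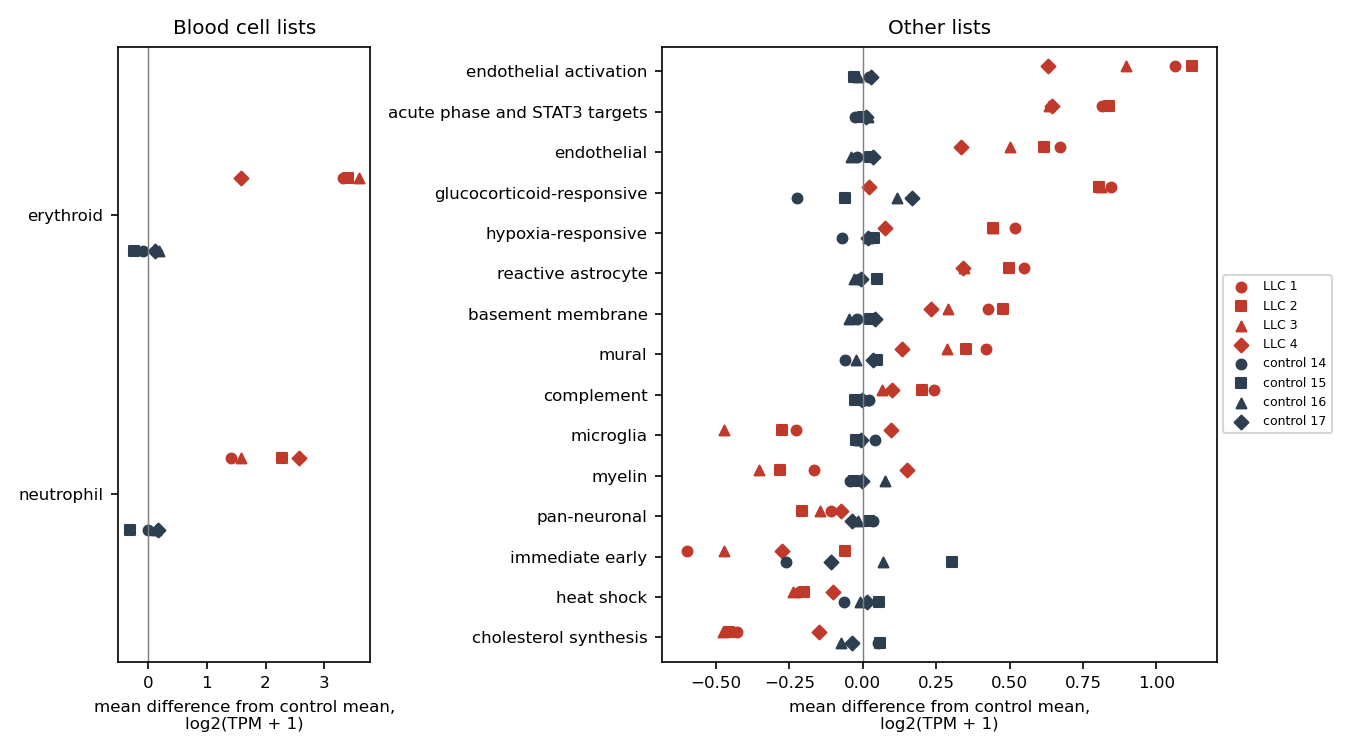
Mean difference from the control mean over the tested members of each gene list, log2(TPM + 1), 1 symbol per replicate number (LLC red, controls dark blue), with blood cell lists on a wider axis. LLC 4 lies at 0.02 for the glucocorticoid-responsive list and at -0.15 for cholesterol synthesis, while for the acute-phase list all 4 LLC numbers lie between 0.63 and 0.84. The acute-phase mean includes Lrg1, Lcn2, Ch25h and Hp, which entered the test through the LLC libraries, so the filter favoured a higher mean.

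Reactive astrocyte genes rose in 8 of 15 tested cases and fell in 0 (53.3% called, against 14.2% of all genes tested; Lcn2 entered through the LLC libraries), but the defining gene was not among them. Gfap, the astrocyte intermediate filament, was at 116, 107, 97.4 and 152 TPM in LLC 1 to 4 and at 144 to 150 TPM in controls (-0.32 ± 0.11, limma adjusted p = 0.0754). The members that rose were Lcn2, Osmr, Srgn, Vim, Fbln5, Emp1, Cp and Ggta1, several of which endothelium also expresses. Of 13 homeostatic astrocyte genes 2 rose and 1 fell (23.1% called). Aldoc, an aldolase of astrocytes, rose by 0.30 ± 0.03 and Glul, glutamine synthetase, by 0.32 ± 0.08. Aqp4, the water channel of astrocyte endfeet, stood at 63.0, 65.8, 63.9 and 114 TPM in LLC 1 to 4 and at 120 to 135 TPM in controls, so that LLC 4 lay next to the controls. Its fall of 0.76 ± 0.16 did not pass without LLC 2, LLC 3, control 15 or control 16. Without LLC 4, 3 members of the list rose and 7 fell, and without any other single number 1 rose.

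The share of called genes was 13.3% for microglia, 12.5% for interferon-stimulated, 15.4% for antigen presentation and 18.2% for complement genes, near the 14.2% of all genes tested, and 33.3% for cytokine and prostaglandin genes (3 of 9). Among 15 microglial genes 0 rose and 2 fell, the receptors Gpr34 (-0.38 ± 0.09) and P2ry12 (-0.40 ± 0.11). P2ry12 stood at 24.1, 24.5, 20.9 and 32.3 TPM in LLC 1 to 4 and at 31.2 to 36.4 TPM in controls, with LLC 4 inside the control range. The count of falls was 11 without LLC 4, 1 without LLC 1 and 0 without any other number. Of 16 interferon-stimulated genes Ifitm3 rose (0.47 ± 0.05) and Gbp3 fell (-0.52 ± 0.10), and of 13 antigen presentation genes Tap2 and H2-T23 rose, by 0.28 ± 0.06 and 0.18 ± 0.05. Gbp3 did not pass without control 15, 0 antigen presentation genes rose without control 15 or 16, and 5 fell without LLC 4. Complement genes rose in 2 of 11 cases, C4b (0.49 ± 0.09), whose reads its near copy C4a may share, and C1ra, and in 4 without LLC 4 and 1 without any other number. Among 9 cytokine and prostaglandin genes Il1r1 and the chemokine Cxcl12 (0.87 ± 0.12) rose and Ptges3, a co-chaperone and prostaglandin synthase, fell by 0.19 ± 0.04, a fall that did not pass without LLC 2, LLC 3 or controls 15, 16 or 17.

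Cholesterol synthesis genes were lower in LLC brains, with 16 of 24 falling, 0 rising (66.7% called, against 14.2% of all genes tested) and a median of -0.36. The enzymes that fell span the pathway from Hmgcs1 through Idi1, Fdps, Fdft1 and Sqle to Cyp51, Sc5d and Dhcr7. The list's falling members also include Srebf2, a sterol-regulated transcription factor. Hmgcs1 stood at 142, 126, 133 and 191 TPM in LLC 1 to 4 and at 240, 237, 228 and 231 TPM in controls 14 to 17. Cyp51, the lanosterol demethylase, was at 28.4, 26.8, 25.7 and 34.5 TPM in LLC and at 43.8 to 50.3 TPM in controls. For both genes all LLC values lay below all controls, with LLC 4 between the other LLC numbers and the controls. Log2 fold changes were -0.68 ± 0.11 for Hmgcs1 and -0.65 ± 0.08 for Cyp51. Insig1, also a target of Srebf2, did not pass (-0.31 ± 0.10, limma adjusted p = 0.0717). The regional medians were -0.38 in neocortex, -0.30 in cerebellum and -0.46 in hippocampus. Without control 15 the list had 10 falling members.

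The promoter of Hmgcs1 is shown as that of a falling gene with the sterol element letters TCACNCCAC, searched on both strands and marked in capitals. It covers chr13:119690101-119690400 on the plus strand of GRCm38.p6 (RefSeq).
Hmgcs1: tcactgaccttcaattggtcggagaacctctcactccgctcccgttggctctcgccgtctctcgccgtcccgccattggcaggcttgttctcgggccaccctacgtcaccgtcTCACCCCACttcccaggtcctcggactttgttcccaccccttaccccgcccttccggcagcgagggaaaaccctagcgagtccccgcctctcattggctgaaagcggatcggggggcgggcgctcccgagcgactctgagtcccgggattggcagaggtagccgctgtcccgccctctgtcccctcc
The match lies at position -137 from the start site, and 106 of 10268 promoters of tested genes (1.03%) held these letters. Of the 16 falling members only 10 had a window, too few for a comparison of the list, and Hmgcs1 alone of these held the letters. Those of Cyp51, Sc5d and Idi1 did not.

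Heat shock genes fell in 12 of 20 cases and rose in 0, with a median of -0.18 (60% called, against 14.2% of all genes tested). The called members fell by 0.16 (Dnaja1) to 0.67 (Cryab) on the log2 scale. The chaperonin genes Hspe1 and Hspd1, the Hsp90 gene Hsp90aa1 and the co-chaperones Stip1, Cacybp, Chordc1 and Dnaja1 were among them. Hspe1 stood at 83.4, 83.1, 80.3 and 85.0 TPM in LLC 1 to 4 and at 94.9 to 98.7 TPM in controls. Hspa8, the constitutive Hsc70, fell by 0.18 ± 0.04, and Cryab, a small heat shock protein of glia, by 0.67 ± 0.18, with LLC 4 at 158 TPM inside the control range of 152 to 167 TPM. The stress-inducible Hspa1a differed by 0.05 ± 0.07 and did not pass. The count was 6 without control 15 and 6 without control 16. Among 22 genes of the endoplasmic reticulum and of the factor ATF4, 3 fell, Slc7a11, Atf4 and Asns. Their share, 13.6% called, was near the 14.2% of all genes tested. The count of these falls was 9 without LLC 4, and 1 without LLC 1, 2 or 3 or controls 15, 16 or 17.

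Among pan-neuronal genes 26.7% were called, among immediate early genes 23.5% and among myelin genes 23.5%, against 14.2% of all genes tested. Tubb3, Stmn2, Map2 and Gap43, which encode cytoskeletal and growth-cone proteins, fell among 15 pan-neuronal genes, by 0.15 to 0.38 on the log2 scale. Means of Stmn2, Map2 and Gap43 were lower in LLC in each region. Tubb3 was lower in neocortex and hippocampus, but its cerebellar mean was 417 TPM in LLC against 358 TPM in controls, with overlapping groups. The count of pan-neuronal falls was 0 without LLC 3 or control 15 and 1 without LLC 2 or controls 14, 16 or 17. Of 17 tested immediate early genes, which neurons induce on activity, Nptx2, Homer1, Arc and Bdnf fell (median of the list -0.29). Fos ranged from 5.74 to 17.04 TPM in LLC and from 13.8 to 35.3 TPM in controls, a spread too wide for the test (-0.96 ± 0.35, limma adjusted p = 0.0887). The count was 1 without LLC 1 or 3, 2 without LLC 2 and 0 without controls 15, 16 or 17. Among 17 myelin genes Mal and Myrf rose, by 0.43 ± 0.07 and 0.28 ± 0.06, and 2 fell, among them Ugt8a by 0.81 ± 0.20. Ugt8a, which makes myelin galactolipids, was at 19.4, 21.6, 17.3 and 39.3 TPM in LLC 1 to 4 and at 38.8 to 43.2 TPM in controls. Mbp, the major myelin basic protein, differed by -0.01 ± 0.06. Without LLC 4 2 members rose and 11 fell, and without any other single number 0 fell.

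The regions were then set side by side for the largest rises and falls. All 15 largest rises were separated between LLC and control libraries in each of the 3 regions, against 2.66% of all genes tested. They had been chosen for averages that did not overlap, which favoured this. By limma's moderated F test the effect depended on region for 0 of them. Over all genes tested that share was 0.836%, so 0 of 15 does not set them apart. Among the 15 largest falls, Gkn3, Acat3 and Slc16a7 were separated in each region. Region dependence was called for 9, of which 0 kept the call without control 15, when Gda and Vim alone were called. For 13 the cerebellum had the largest fall. The neocortical log2 fold change was above -0.15 in 9: Lnpep, Ptar1, Lmbrd2, Lcor, Fzd3, Zfp871, Arfgef3, Kcna3 and Klhl28. The LLC mean was under 1 TPM for Lcor in hippocampus and for Kcna3 in cerebellum and hippocampus. There both genes reached the minimum for testing through the control libraries, which favoured a fall.

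**Figure D3:**
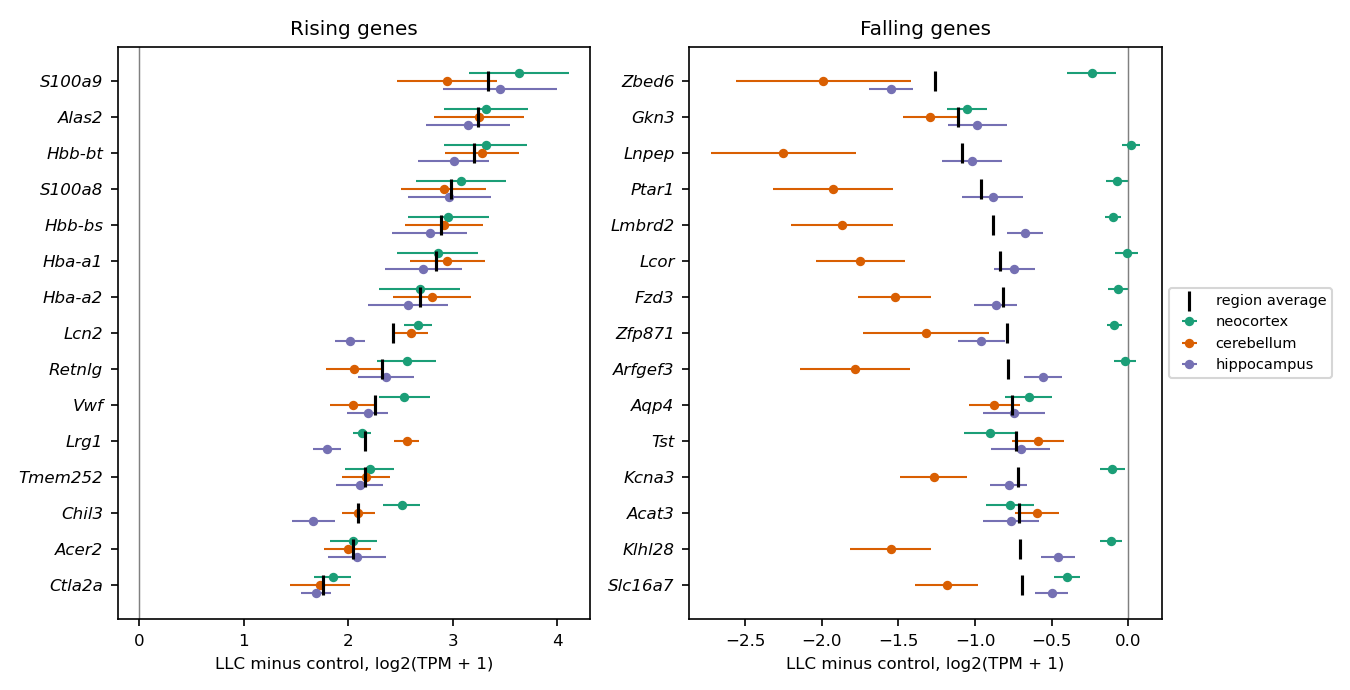
LLC minus control difference, log2(TPM + 1), of the same 30 genes in neocortex, cerebellum and hippocampus (points with SE bars, 4 against 4 libraries) and of the region average (black ticks). The 3 regions lie close together for the haemoglobin genes, whereas for Lnpep they lie at 0.02, -2.25 and -1.02.

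Gkn3 (chr6:87383256-87388935) was the largest of the falls that were separated in every region. It stood at 3.59, 2.76, 4.51 and 4.46 TPM in LLC 1 to 4 and at 7.07, 9.42, 11.6 and 9.65 TPM in controls 14 to 17. Regional log2 fold changes were -1.05 in neocortex, -1.29 in cerebellum and -0.99 in hippocampus. Acat3, an acetyl-CoA acetyltransferase whose reads the adjacent copy Acat2 may share, fell by 0.71 ± 0.14. Slc16a7, a monocarboxylate transporter of neurons, fell by 0.69 ± 0.11, by 0.40, 1.18 and 0.50 in neocortex, cerebellum and hippocampus. Tst, the mitochondrial enzyme thiosulfate sulfurtransferase, was at 31.9, 31.1, 29.0 and 55.5 TPM in LLC and at 56.5 to 63.7 TPM in controls, and of the 8 fits that left out 1 number it passed only in the one without LLC 4.

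Lnpep, a membrane aminopeptidase (chr17:17521410-17625050), had the widest regional contrast of the 15 falls. In the cerebellum it was at 1.86, 14.7, 12.7 and 8.38 TPM in LLC 1 to 4 and at 36.3, 58.8, 43.9 and 28.6 TPM in controls 14 to 17. In the neocortex the same numbers were at 42.9, 39.7, 39.8 and 35.6 TPM and at 40.9, 40.7, 37.6 and 36.7 TPM. The cerebellar groups did not overlap and the neocortical groups did. The average over regions, -1.09 ± 0.19, was -0.50 without the cerebellum and -0.81 without the cerebellar library of LLC 1 alone. Zbed6, a transposon-derived transcription factor gene that lies within an intron of Zc3h11a, so that reads may be shared, was listed at 0 in the cerebellum of LLC 1. Its averages were 1.66, 4.50, 3.45 and 2.35 TPM in LLC and 7.60 to 8.72 TPM in controls. Without the cerebellum Ptar1, Lmbrd2, Lcor, Fzd3, Zfp871, Arfgef3, Kcna3, Klhl28 and Slc16a7 had log2 fold changes between -0.28 and -0.53 in place of -0.69 to -0.96, and all still passed. Zfp871 did not pass without the hippocampus, control 15 or control 16.

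Averaging brought in genes that no single region called. Of the 1939 genes called brain-wide, 766 (39.5%) were called in the same direction in 0 regions, 770 in 1, 294 in 2 and 109 in 3. The 109 comprised 92 rising and 17 falling genes. On the same genes, the neocortex alone gave 1282 calls (9.4% of tested), the cerebellum 383 (2.81%) and the hippocampus 550 (4.03%). Leaving out 1 number moved these counts to between 198 (LLC 1) and 3754 (LLC 4), between 7 (control 16) and 1486 (LLC 4), and between 69 (control 14) and 1628 (LLC 4). The median standard error per gene was 0.0566 for the average, 0.0602 in neocortex, 0.0955 in cerebellum and 0.0733 in hippocampus. Of 1693 genes called in at least 1 region, 520 were not called brain-wide. All 4 LLC libraries lay on one side of all 4 controls in each region, in the same direction, for 362 genes (2.66%), 248 upward and 114 downward, and 358 of these were called brain-wide. The sign was the same in the 3 regions for 96.9% of called genes and 57.8% of tested genes. The call uses the sum of the regional values, so this share is a description.

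The effect of the tumour depended on region for 114 genes, 0.836% of those tested (limma moderated F over 2 interaction terms, replicate number as a block, Benjamini-Hochberg adjusted p under 0.05), and 2168 passed at an unadjusted p under 0.05. Of the 114, 67 were also called in the average, and in 24 of these the regions differed in sign. The count was 2, 7, 7, 14 and 15 without control 15, LLC 2, control 17, control 16 and control 14, and 335 without LLC 4. Gda and Vim were called in all 8 fits that left out 1 number, out of 20 genes named for region dependence.

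Gda, a guanine deaminase of forebrain neurons, was at 153, 150, 150 and 168 TPM in neocortex of LLC 1 to 4 and at 169 to 179 TPM in that of controls. In the cerebellum, where it is scarce, it stood at 2.05, 2.05, 1.66 and 1.62 TPM in LLC and at 0.394 to 0.621 TPM in controls. Gda thus reached the minimum of 1 TPM in cerebellum through the LLC libraries, which favoured a rise there. The groups did not overlap in either region, by a narrow margin in neocortex, and differed in opposite directions, by -0.14 and 0.88 on the log2 scale (limma F adjusted p = 0.000111). Its brain-wide call, a rise of 0.19 ± 0.03, became -0.16 without the cerebellum. Vim, the intermediate filament vimentin of endothelium and glia, rose in neocortex and hippocampus, by 0.76 and 0.80, and differed by -0.21 in cerebellum (limma F adjusted p = 0.000519). Its levels were 88.2, 76.4, 83.8 and 60.0 TPM in neocortex of LLC 1 to 4 against 39.8 to 47.8 TPM in controls.

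Hes5, a Notch target of astrocytes, fell in the average by 0.62 ± 0.12, with 11.7, 11.6, 12.5 and 21.5 TPM in neocortex of LLC 1 to 4 against 24.8 to 29.6 TPM in controls. In the cerebellum it stood at 2.67 to 3.27 TPM in LLC and 2.05 to 2.73 TPM in controls, and the regions differed (limma F adjusted p = 0.00507). Etnppl, a phospholyase of astrocytes, rose by 1.20 ± 0.18 in the average. It was at 63.3, 60.5, 61.5 and 26.8 TPM in neocortex of LLC 1 to 4 against 11.6 to 15.4 TPM in controls, and at 83.0 to 91.0 TPM in cerebellum against 61.8 to 82.2 TPM. Klf10, a Kruppel-like transcription factor, had regional log2 fold changes of -0.81, 0.19 and -0.43. The F calls of Hes5, Etnppl and Klf10 did not pass without control 15, and that of Etnppl also not without LLC 2 or control 17.

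LLC 4 stood between the other LLC numbers and the controls for much of the effect. Over the called rising genes, which were chosen with these values, the median difference from the control mean was 0.29, 0.31, 0.31 and 0.17 in LLC 1 to 4, and over the called falling genes -0.31, -0.22, -0.26 and -0.13. LLC 4 was the LLC number nearest to the controls in 65.7% of rising and 67.4% of falling calls. For LLC 1, 2 and 3 these shares were 16.6%, 4.52% and 13.2% of rising and 4.93%, 17.7% and 9.98% of falling calls. The first principal component of the region averages of all tested genes held 58.7% of their variance. It placed LLC 1 to 4 at -17.8, -12.7, -16.5 and 1.27 and the controls at 10.4 to 13.3. The lists did not share 1 order. LLC 4 was the highest LLC number for the neutrophil sum and Socs3 and lay within the range of the others for Lrg1. Its glucocorticoid-responsive mean lay within the control range, and its microglial and myelin means, at 0.10 and 0.15, were above the controls while those of LLC 1 to 3 were below them. Tumour size and body weight per mouse are not part of the data used here, and whether they move with this order was not tested.

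**Figure D4:**
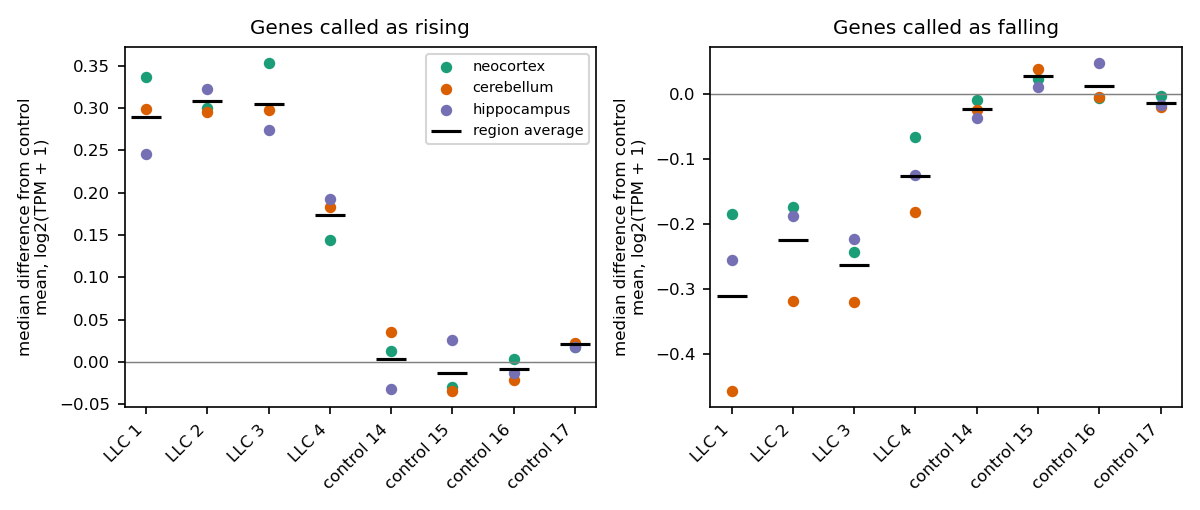
Median difference from the control mean, log2(TPM + 1), over the 1107 rising (left) and 832 falling (right) called genes for each replicate number, in each region (points) and in the region average (bars). LLC 4 lies at 0.17 and -0.13 in the average, nearer to the controls than the other 3 LLC numbers, which the same genes were chosen on.

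Calls were unevenly spread over transcript GC content. Among tested genes with a unique annotation (96.7%), divided into 5 equal bins, the bin with the lowest GC content, under 44.7%, had 2.28% rising and 15.7% falling calls, and the bin with the highest, above 55.8%, had 15.5% rising and 1.9% falling. The median log2 fold change of the lowest bin was -0.02 in neocortex, -0.16 in cerebellum and -0.03 in hippocampus. The median GC content was 54.6% for rising, 44.4% for falling and 50.2% for all tested genes. With each library's trend over GC content and length removed, 1947 genes were called, of which 1269 were shared with the calls on uncorrected values. That fit kept 66.8% of the rising and 69.2% of the falling calls and all 30 of the largest changes.

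**Figure D5:**
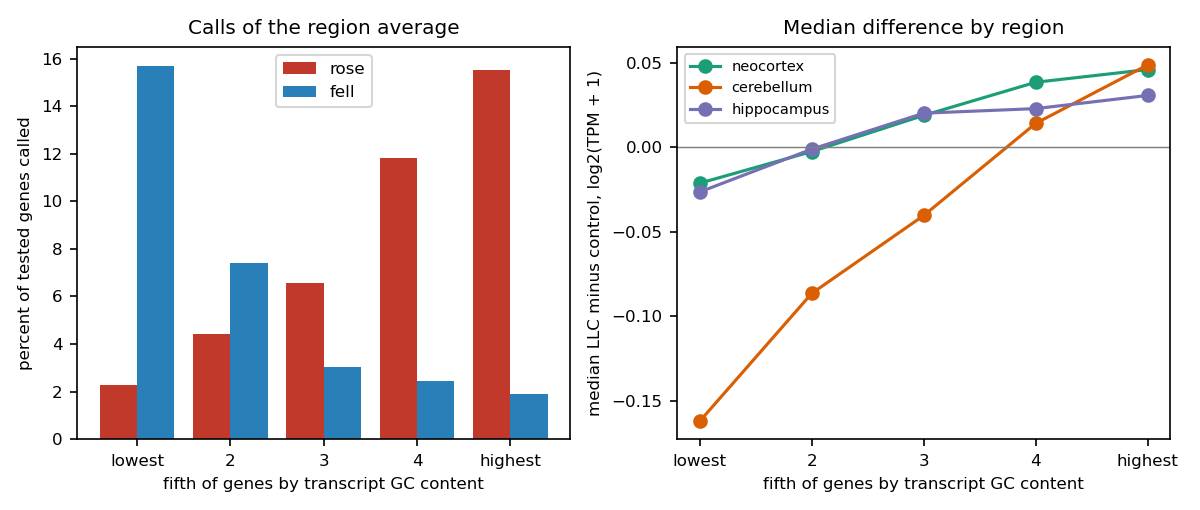
Left, percent of tested genes called as rising (red) or falling (blue) in the region average, in 5 equal bins of transcript GC content. Right, median LLC minus control difference, log2(TPM + 1), per bin in each region; the cerebellum runs from -0.16 in the lowest bin to 0.05 in the highest.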

How the data were processed

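RNA was extracted with Trizol, made into TruSeq stranded mRNA libraries and sequenced on a NovaSeq 6000, per the labels' protocols. TPM values for the 24 libraries were deposited by the authors as a single table, with columns that sum to about 1e6. Processing notes of the submitters name mm10. Not given in the sources used here are the aligner, the counter and the annotation. This unit divides by the library total, so genes that take a larger share lower all others, and read numbers and depth are lost. Identical values were found in 0 of 276 library pairs.

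Region averages were the mean of log2(TPM + 1) per title number, and printed averages in TPM are back-transformed from it. The pseudocount of 1 understates changes of low genes. Genes with a mean of at least 1 TPM in each region were tested with limma 3.58.1 (lmFit, eBayes with a trend) in R 4.3.3, two-sided, with Benjamini-Hochberg adjustment at 0.05. Regional fits used the same genes. Region dependence was a moderated F test in 1 fit of 24 libraries with title number as a fixed block. Sums were tested by exact permutation. The scripts were tested on simulated data. Coordinates, length and GC content came from GENCODE M21, and promoters from RefSeq on GRCm38.p6. Figures used Python 3.11.15 and matplotlib 3.10.9.

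Whether a number marks 1 mouse is not stated. Deviations of same-numbered libraries correlated between regions from -0.116 to 0.665 (18 of 24 pairs above every other number of the group), with a consensus correlation of 0.17.

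Named genes were the 15 largest rises and falls among called genes whose groups did not overlap, up to 4 called members of each of 41 gene lists by p, and the 10 genes with the smallest F test p among those called and those not called in the average. Predicted genes and pseudogenes were left out. Some genes that met this rule are not reported here. Further list members, named by role, were chosen after their values were seen. The members and lists were chosen with earlier results of these data known. Alternatives were a pseudocount of 0.1, a minimum of 5 TPM, no filter, quantile and median-ratio scaling, eBayes in its robust form, library weights, removal of the GC and length trend, replicate blocks, averages over 2 regions, and leaving out each number.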

Additional observations from a re-analysis of the deposited data

Results flagged for a closer look

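In 33 of 364 groups of 4 numbers, 1 number stood apart from the other 3 by more than Dixon's 95% critical value, which chance passes in about 5% of groups. LLC 4 accounted for most. On the log2(TPM + 1) scale it stood below the other LLC numbers for Alas2 (4.11), Hbb-bt (8.66), Hbb-bs (10.4), Sparc (8.53), Mt1 (9.47), Map3k6 (1.69), Cdkn1a (4.1), Vegfa (6.11), Ankrd37 (3.49), Vim (6.55), Glul (10.3) and Etnppl (5.18). It stood above them for Aqp4 (6.84), Tst (5.82), Tubb3 (8.48) and Lum (2.5). For each of these genes the value of LLC 4 was nearer to the controls than those of LLC 1 to 3. The log2 sum of the haemoglobin genes was 11.7 in LLC 4, and its mean difference from controls was 1.58 for the erythroid list, 0.0198 for the glucocorticoid-responsive list, 0.0753 for the hypoxia-responsive list and -0.148 for cholesterol synthesis. Causes of the position of LLC 4 were not tested.

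LLC 1 stood apart for Nptx2 (3.7) and for the mean differences of the mitochondrial respiratory chain (0.0337), of 3 cerebellum markers (-0.519) and of 3 neocortex markers (0.254). LLC 2 stood apart for Gda (5.32) and for choroid plexus markers (0.686). Among controls the single values were Lmbrd2 in control 17 (4.81), Ch25h in control 16 (0.384), Cyp51 in control 15 (5.68), and in control 14 Jag2 (4.31), Sesn1 (6.05) and the circadian clock mean (-0.212).

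The moderated F test of limma over all tested genes called region dependence of the tumour effect for 31 of the named genes. Of these, 20 met the naming rule for the smallest F test p, so their passing was fixed by that choice. Only Gda and Vim kept the call without control 15. Adjusted p was 0.0439 for Lnpep, 0.0457 for Ptar1, 0.0266 for Lmbrd2, 0.0173 for Lcor, 0.0203 for Fzd3, 0.0448 for Arfgef3, 0.0351 for Kcna3, 0.0315 for Klhl28 and 0.0448 for Slc16a7, all with the largest fall in cerebellum. It was 0.000111 for Gda, 0.000519 for Vim, 0.00507 for Hes5, Klf10, Shisa9 and Asf1a, 0.0125 for Etnppl and Glis3, 0.0173 for Erbb4, 0.0263 for Cdkn1a, 0.0226 for Gpr17 and 0.0448 for Igfbp3. Among genes not called in the average it was 0.0125 for Cpeb2, Itga1 and Msn, 0.0144 for Mapk11, 0.0171 for Npy, 0.0173 for Arhgap33, Ier5, Lacc1 and Dnajc24 and 0.0214 for Nid1. Npy, a neuropeptide of interneurons, had regional log2 fold changes of -0.04 in neocortex, 0.67 in cerebellum and -0.36 in hippocampus.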

How the results depend on the processing

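The brain-wide count of 1939 was 1905 with a pseudocount of 0.1, 1610 at a minimum of 5 TPM, 2304 and 2397 with median-ratio and quantile scaling, 1916 with robust eBayes and 1947 with the GC and length trend removed. It was 1088 with no filter (24421 genes tested), 5197 with library weights, 3320 with 24 libraries in 1 fit and the number as a random block, 4625 with the number ignored, 964 without neocortex, and 368 to 4111 when 1 number was left out. With no filter the neocortex had 200 calls, the cerebellum 11, the hippocampus 75 and region dependence 38. Cerebellar calls were 767 and 863 with median-ratio and quantile scaling and 154 with the GC trend removed, and region dependence had 74 with quantile scaling. Library weights gave 4277, 5728, 1211 and 1201 for neocortex, cerebellum, hippocampus and region dependence. Leaving out 1 number gave 198 to 3754, 7 to 1486, 69 to 1628 and 2 to 335, respectively. The split into higher and lower calls moved with scaling: 830 and 452 in neocortex became 610 and 540 with quantile scaling and 535 and 735 with the GC trend removed. In cerebellum 177 and 206 became 439 and 328 with median-ratio scaling, 503 and 360 with quantile scaling and 95 and 59 with the GC trend removed. In hippocampus 396 and 154 became 350 and 230, 337 and 243, and 309 and 324. Haemoglobin sums differed by 2.65 to 3.31 (log2) when 1 number was left out, with an exact permutation p of 0.0571 without any 1 control, and neutrophil sums by 2.37 to 3.00. The sign reversed for mt-Nd4l with quantile scaling (0.018), for Gda without cerebellum (-0.16) and for Dcn without hippocampus (0.11), and the cause was not tested.

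The replicate number of the descriptions, as a block pairing LLC with control libraries, gave 2053 calls brain-wide (1026 upward, 1027 downward, 1639 shared), 706 in neocortex, 756 in cerebellum and 262 in hippocampus. Correlations of same-numbered deviations ran from -0.101 to 0.256, and 4 pairs are too few to decide whether these numbers pair the samples. Region dependence had 52 calls with no replicate block. With 4 numbers per group and unknown depth, small changes and low genes are the least certain, and the labels do not say whether a number is 1 mouse.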

Other observations

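The share of genes called over all tested, 14.2% (8.12% rising, 6.1% falling), is the background for the counts given here. Of 16 genes of the Notch pathway, through which neighbouring cells signal, 5 rose and 1 fell in the region average (37.5% called). Those that rose included Notch4 (0.79 ± 0.17), Dll4 (0.54 ± 0.15) and Jag2 (0.27 ± 0.06), and the one that fell was the target Hes5. Without control 15 or LLC 2 0 of them rose, and with the GC and length trend removed 1 rose and 1 fell. Notch4 stood at 6.70, 6.07, 5.22 and 3.35 TPM in LLC 1 to 4 and at 2.01 to 3.03 TPM in controls. Among 7 tested thyroid hormone genes Dio2, the deiodinase that activates the hormone in astrocytes, fell by 0.60 ± 0.11, with 19.02, 20.7, 19.6 and 26.2 TPM in LLC and 27.7 to 38.4 TPM in controls, and the receptor gene Thra rose by 0.20 ± 0.05.

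Among 10 insulin-like growth factor genes the binding proteins Igfbp7, Igfbp4 (0.34 ± 0.07) and Igfbp3 (0.68 ± 0.18) rose and 0 fell (30% called), with 1 rising without control 15 or 16. Igfbp3 differed between regions, by 0.89, 0.95 and 0.20 in neocortex, cerebellum and hippocampus. Its F test call did not pass without control 15. Of 15 tested genes of FoxO factors and muscle-type atrophy, Txnip, an inhibitor of thioredoxin, Cdkn1a and Sesn1 rose and Gadd45a fell (26.7% called, and 0 rose without control 16). Txnip stood at 55.9, 54.6, 40.5 and 28.0 TPM in LLC 1 to 4 and at 21.3 to 23.9 TPM in controls. Among 16 antioxidant genes the glutathione peroxidases Gpx1, Gpx3 and Gpx4 and Nqo1 rose and Slc7a11 and Sod2 fell (37.5% called), and 1 rose without control 15 or 16. Sod2, the mitochondrial superoxide dismutase, was at 101 to 117 TPM in LLC and at 126 to 131 TPM in controls.

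Of 11 iron handling genes the ferritin subunits Fth1 (0.29 ± 0.08) and Ftl1 (0.16 ± 0.04) rose and the iron exporter Slc40a1 fell by 0.43 ± 0.10 (27.3% called). Of the fits that left out 1 number, only those without LLC 1 or LLC 4 kept the ferritin calls. Of 12 sphingosine-1-phosphate genes Acer2 and the transporter Spns2 (0.33 ± 0.07) rose (16.7% called). In the respiratory chain 1 of 22 nuclear genes rose and 4 fell, among them Cycs, cytochrome c, by 0.28 ± 0.05 (22.7% called), counts that were 2 and 8 without LLC 4. Shares below the background were those of ribosomal protein genes (6 of 55 rose, 10.9%, and 18 without LLC 4), of clock genes (1 of 18, Dbp, 5.56%) and of Kruppel-like factors (1 of 13, Klf10, 7.69%). Markers of choroid plexus were called in 0 of 5 cases, and their summed level spanned 2009 to 5402 TPM in LLC and 2073 to 3465 TPM in control numbers. Of 8 tested meningeal fibroblast genes Lum and Dcn fell (25% called), and of the regional markers Zbtb20 fell.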
